A study of Homo sapiens with 4 samples.

Results

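*RBM39*, *COX11*, *RNF167*, *TMEM209* and *ERCC6L2-AS1* carried SMAR1 peaks of very high score over their start sites in HCT116 cells with and without p53. These 5 genes, out of 64486 annotated genes, were selected on the score of their promoter peaks and on the presence of the peak in both cell lines, which 575 genes (0.892%) had. Scores, ranks and overlap are therefore given as a description. For each gene, every peak centred within 1 kb of an annotated transcription start site (TSS) was taken, which gave 1 peak per gene in each cell line, 10 peaks in all. HCT116 cells come from a human colorectal carcinoma. Untreated HCT116 p53+/+ cells, which have p53, and HCT116 p53-/- cells, which lack it, were immunoprecipitated with an antibody against SMAR1/BANP, and 1 library was sequenced per cell line. The peaks cannot check the p53 status of either line. Normal rabbit IgG libraries belong to the same design and were not analysed here, so the level of these promoters in a mock precipitation is not known from these data. No library had a replicate, so no difference between the cell lines was tested, and p53 status and library cannot be told apart. Ranges given with shares are 95% Wilson intervals and cover counting error only.

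SMAR1, whose gene is *BANP*, is a nuclear protein that was first described as a binder of matrix attachment regions and as a partner of p53. The same protein is also known to bind a short CG-rich palindrome, the CGCG element, at unmethylated CpG island promoters of widely expressed genes. RBM39 is a splicing factor related to the large U2AF subunit. COX11 delivers copper to cytochrome c oxidase in the inner mitochondrial membrane. RNF167 is a membrane-bound RING ubiquitin ligase of endosomes and lysosomes, and TMEM209 is a nuclear envelope protein. *ERCC6L2-AS1* is a long non-coding RNA gene on the strand opposite to *ERCC6L2*, which it overlaps and which codes for a Snf2-type helicase-like protein.

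All 10 peaks held the same 10 bases, and the 7 genomic copies are shown because they are the sequence that the 5 promoters shared. The words were chosen with earlier results of these data known, but the 10-mer was not looked up from an earlier list. It was the word with the largest excess in the other shared promoter peaks without a T(C/G) run, with the peaks of the 5 genes left out. Each line gives 30 bases of hg19 on the strand of the named gene, with the 10-mer in capitals. The first *RBM39* copy is at chr20:34330219-34330248 and the second at chr20:34330388-34330417. *COX11* is at chr17:53046065-53046094, and the *RNF167* copies are at chr17:4843502-4843531 and chr17:4843602-4843631. *TMEM209* is at chr7:129845325-129845354 and *ERCC6L2-AS1* at chr9:98637871-98637900. *RNF167* is on the plus strand and the other genes are on the minus strand.
RBM39 at the start: tggggcagctTCTCGCGAGAgcccgtgctg
RBM39 upstream: acccgctctgTCTCGCGAGAtttgggtgct
COX11: tcaacccagaTCTCGCGAGAcggagcacgc
RNF167 first: tgtttgaaggTCTCGCGAGAtcgagtgagt
RNF167 second: tggtgagcacTCTCGCGAGAtttgaaggag
TMEM209: cccctcccttTCTCGCGAGAagagactacc
ERCC6L2-AS1: gtcattgggaTCTCGCGAGAacgaaatctt

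The word TCTCGCGAGA reads the same on both strands. In HCT116 p53+/+ it occurred in 90 of 5684 peaks whose bases are all known in hg19 (1.58%), and in HCT116 p53-/- in 126 of 8186 (1.54%). With up to 1 mismatch these shares were 3.68% and 4.35%. The 5 genes held it in 5 of 5 peaks in each line. Of 35116 RefSeq promoters of 300 bases (GRCh38.p14, 250 bases before to 50 after the start), 149 held it (0.424%). Whether the 5 genes were first singled out with this word in view is not known, so the 5 of 5 is a description.

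The copies lay close to annotated starts (GENCODE release 44 on hg19). At *RBM39* the first copy spanned the start of the gene itself, at 34330229 to 34330238, and reached into the untranslated part of its first exon. The second copy, at 34330398 to 34330407, lay 168 bp upstream, outside any gene. At *COX11* the copy filled part of the 24 bp between the start of *COX11* and that of *STXBP4*, at 53046075 to 53046084. Both *RNF167* copies, at 4843512 to 4843521 and 4843612 to 4843621, fell in untranslated exon sequence of *RNF167*, 47 bp before and 22 bp after the nearest start. The *TMEM209* copy, at 129845335 to 129845344, was 93 bp upstream of the nearest start and within an intron of a longer transcript. The *ERCC6L2-AS1* copy, at 98637881 to 98637890, was 16 bp upstream of the nearest start, in an exon of another transcript of that gene and within *ERCC6L2* but in none of its exons.

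Near matches to the word stood beside it at 4 of the 5 genes. They are shown on the strand of the named gene with the unmatched base in lower case.
COX11, chr17:53046056-53046065: cCTCGCGAGA
COX11, chr17:53046220-53046229: TCTgGCGAGA
ERCC6L2-AS1, chr9:98637916-98637925: TCcCGCGAGA
RBM39, chr20:34330273-34330282: TCTCGCGAtA
RNF167, chr17:4843554-4843563: TCTCGCGAtA
*TMEM209* had the single exact copy and no near match. *RBM39* and *RNF167* thus held 2 exact copies and 1 near match each. Only 7 peaks of either list held 2 exact copies, and in each list 2 of those 7 were the *RBM39* and *RNF167* peaks.

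**Figure D1:**
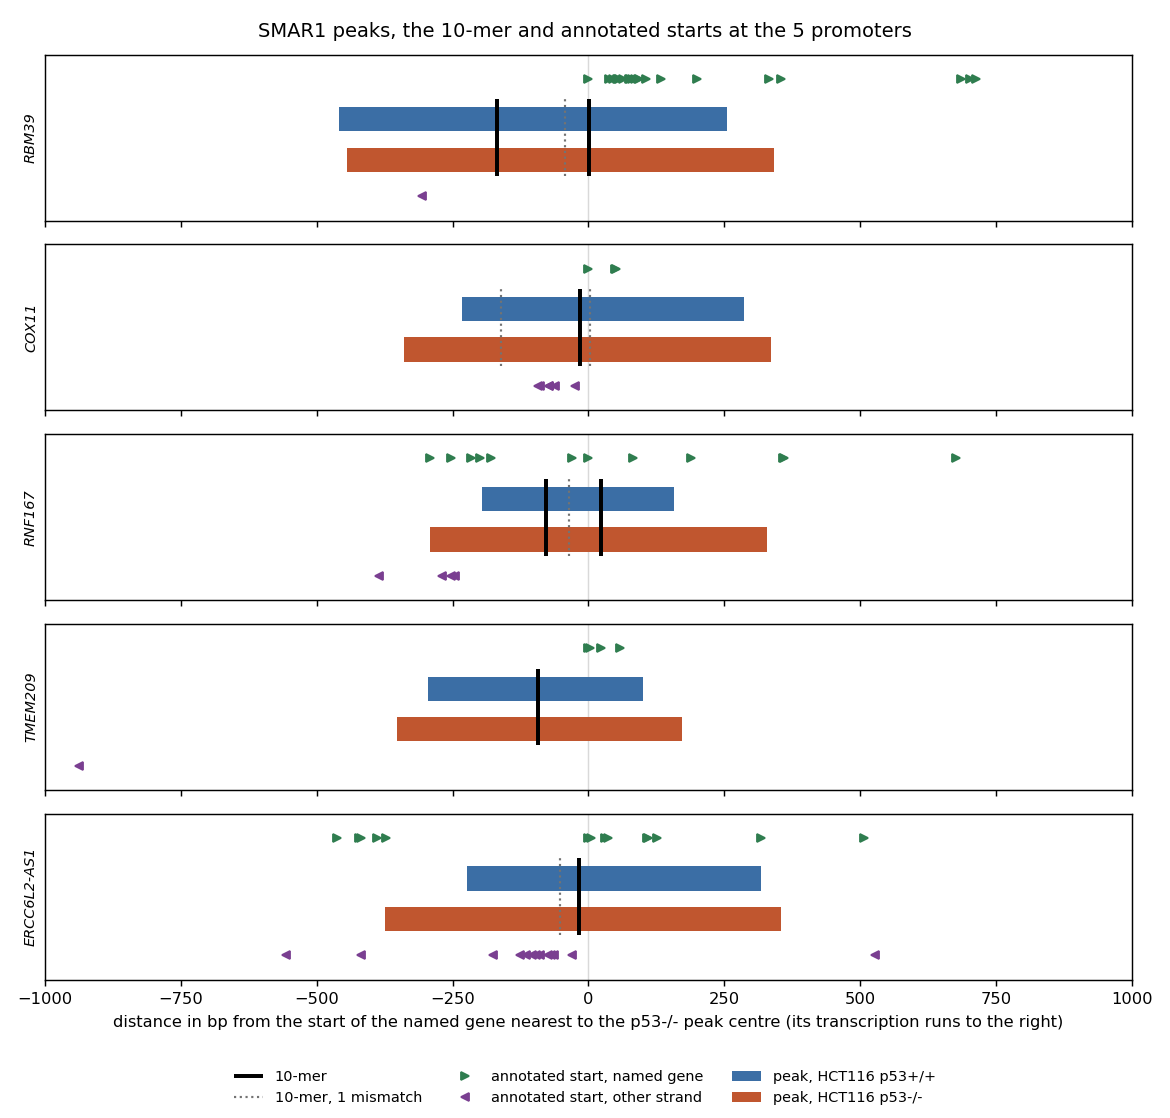
SMAR1 peaks in both cell lines (bars), copies of the 10-mer (black lines), near matches (dotted lines) and annotated starts (triangles) at the 5 promoters, on an axis in bp from the start of the named gene nearest to the p53-/- peak centre. At each gene the bars of the cell lines overlap and both cover every copy of the 10-mer.

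The *RBM39* peak was the third highest of the HCT116 p53+/+ list and the second highest of the HCT116 p53-/- list. The MACS score of a peak, its p-value on a -10 log10 scale, was 1368.67 and 3160.36, respectively. The peak ran from 34329979 to 34330694 on chromosome 20 (716 bp) in HCT116 p53+/+ and from 34329893 to 34330678 (786 bp) in HCT116 p53-/-. The lines shared 700 bp of it. It was centred 102 and 51 bp upstream of the gene start and covered 16 and 17 distinct annotated starts of *RBM39*. A lncRNA gene on the plus strand (ENSG00000289872, 34330541 to 34331745) started 307 bp away, and both peaks also covered that start.

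*COX11* had a score of 677.03 in HCT116 p53+/+ (rank 8) and 2369.19 in HCT116 p53-/- (rank 6). Its peak extended from 53045778 to 53046296 on chromosome 17 (519 bp) and from 53045728 to 53046404 (677 bp), and the first lay wholly within the second. The centres were 22 and 2 bp upstream of the nearest *COX11* start. On the plus strand, *STXBP4* (53046088 to 53250993), which codes for a syntaxin-binding protein, starts 24 bp from *COX11*. Both peaks covered 6 starts of *STXBP4* and 3 of *COX11*, so the pair shared 1 peak.

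*ERCC6L2-AS1* had a score of 796.39 in HCT116 p53+/+ (rank 7) and 2189.6 in HCT116 p53-/- (rank 9). The peak spanned 98637551 to 98638093 on chromosome 9 (543 bp) and 98637515 to 98638243 (729 bp). It was centred 11 bp downstream of the nearest start of the gene in HCT116 p53+/+ and 10 bp upstream of one in HCT116 p53-/-. *ERCC6L2* (98633546 to 98883436, plus strand) overlaps *ERCC6L2-AS1*, with 4785 bp between the gene starts. *ERCC6L2* has a number of starts in the same stretch, and 10 of them lay in the peak in both lines. With 8 and 9 starts of *ERCC6L2-AS1*, this was a promoter in which starts of both strands interleave.

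*RNF167* ranked 12 in HCT116 p53+/+ with a score of 508.99 and 28 in HCT116 p53-/- with a score of 1627.29. Its peak was the shortest of the 5 in HCT116 p53+/+, from 4843399 to 4843752 on chromosome 17 (354 bp), and reached from 4843302 to 4843922 (621 bp) in HCT116 p53-/-. The centres were 12 and 18 bp downstream of the nearest start. *SLC25A11* (4840425 to 4843348, minus strand), the mitochondrial carrier of 2-oxoglutarate and malate, overlaps the beginning of *RNF167*, with 45 bp between the gene starts. The HCT116 p53-/- peak covered 3 starts of *SLC25A11* and the shorter HCT116 p53+/+ peak covered none.

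*TMEM209* ranked 38 in HCT116 p53+/+ with a score of 329.31, within the first 0.666% of that list. In HCT116 p53-/- it ranked 14 with a score of 2035.47, within the first 0.17%. Its peak lay from 129845146 to 129845542 on chromosome 7 (397 bp) and from 129845074 to 129845598 (525 bp), with the centres only 8 bp apart. The centres were 98 and 90 bp upstream of the nearest start. The annotated gene begins more than 2 kb further upstream, at the start of a longer transcript. *SSMEM1* (129846184 to 129856684, plus strand), which codes for a single-pass membrane protein, overlaps the longer transcript, with 1426 bp between the gene starts, and no start of *SSMEM1* lay in either peak.

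Neither scores nor ranks are on one scale between the lines. The score is not scaled for depth, the study's methods give more reads for the HCT116 p53-/- library, and the lists hold 5709 and 8217 peaks. The order of the 5 genes is therefore read within each line. *RBM39* ranked first among the 5 genes in both lines. *COX11* and *ERCC6L2-AS1* came next in both, in opposite order (677.03 below 796.39 in HCT116 p53+/+, and 2369.19 above 2189.6 in HCT116 p53-/-), and *RNF167* and *TMEM209* also changed places. The score of a peak also rises with its length. By score per bp, the ranks of the 5 genes ran from 1090 to 3788 in HCT116 p53+/+ and from 73 to 653 in HCT116 p53-/-.

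**Figure D2:**
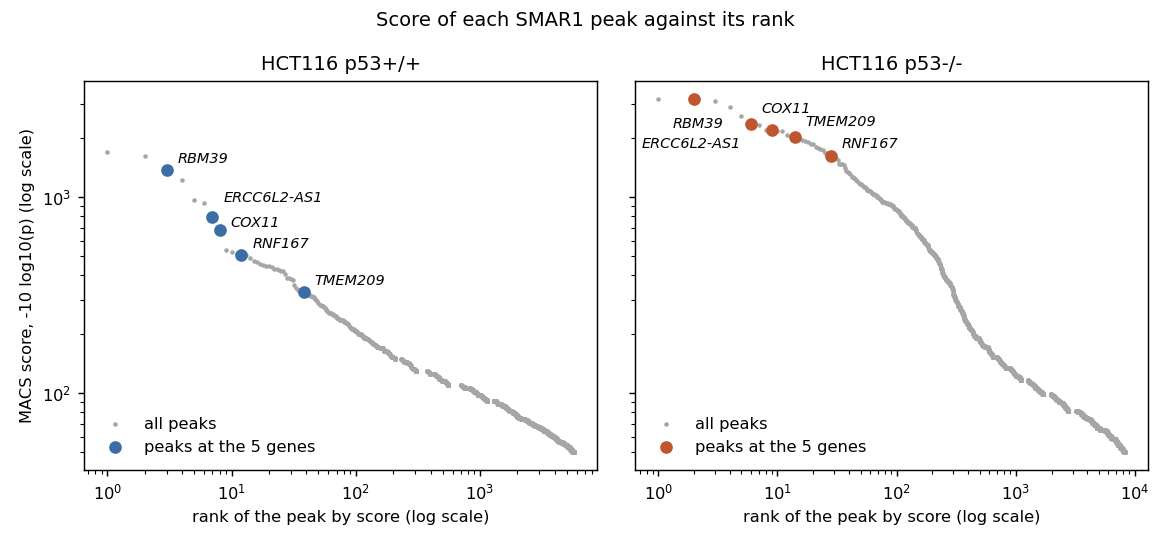
Score of each peak against its rank in each cell line, both on log axes, with all peaks as grey points and the peaks at the 5 genes in colour. The 5 genes lie among the highest ranks, from 3 to 38 in HCT116 p53+/+ and from 2 to 28 in HCT116 p53-/-.

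The 5 genes were not the first 5 in order. Shared promoter peaks were ordered by the worse of their ranks in the lines. *RBM39* held place 1, *COX11* place 5, *ERCC6L2-AS1* place 6, *RNF167* place 16 and *TMEM209* place 23 of 418. Another 18 loci stood at or before place 23. Just outside, the next was *ANKFY1*, which codes for an endosomal Rab5 effector, with ranks 36 (score 333.54) and 39 (score 1348.89), whereas *TMEM209* had ranks 38 and 14. After it came *PHF12* with *PIPOX* on the other strand, *COASY*, *ERGIC2*, and *SEPTIN7* with *SEPTIN7-DT*. Of these 5 following loci, *ANKFY1*, *COASY* and *SEPTIN7* held the exact 10-mer.

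Sharing was part of the selection, and its background is given as a description. In HCT116 p53+/+ 20.2% of all peaks, and in HCT116 p53-/- 13.5%, touched a peak of the other line by at least 1 bp. Peaks centred within 1 kb of a TSS made up 13.9% and 16.2%, and peaks that were both 7.32% and 4.53%. The HCT116 p53+/+ peak lay wholly inside the HCT116 p53-/- peak at 4 of the 5 genes, and at *RBM39* 97.8% of it did. Of the HCT116 p53-/- peak, the shared bases made up 57.0% at *RNF167*, 74.5% at *ERCC6L2-AS1*, 75.6% at *TMEM209*, 76.7% at *COX11* and 89.1% at *RBM39*. Among the other 413 shared promoter pairs, 82.1% were nested in the same way, so nesting did not set the 5 genes apart. The HCT116 p53-/- peak was longer at 5 of 5 genes, by 1.1 to 1.75 times (median 1.32), and at 93.0% of the other pairs (median 1.96). The centres of the lines were 8 to 57 bp apart at the 5 genes (median 37.0), and the median was 37.0 among the other pairs too.

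In length and in base composition the 5 peaks differed from most of the list. In base composition they were close to the other shared promoter peaks. The 5 peaks measured 354 to 716 bp in HCT116 p53+/+ and 525 to 786 bp in HCT116 p53-/-, with medians of 519 and 677 bp. The median over all peaks was 61.0 bp in both lines, and over the other shared promoter peaks it was 155 and 432 bp. A peak's score and length come from the same reads, so this is part of how the genes were chosen. G and C made up 53.4% (*TMEM209*) to 62.4% (*ERCC6L2-AS1*) of the HCT116 p53+/+ peaks and 54.1% to 62.8% of the HCT116 p53-/- peaks, for the same genes. The median was 60.7% and 60.0% in the other shared promoter peaks. CG dinucleotides occurred at 0.743 (*COX11*) to 0.932 (*RNF167*) of the number that the C and G content alone gives in HCT116 p53+/+, and at 0.808 to 0.867 in HCT116 p53-/-. The median of that ratio was 0.888 and 0.844 in the other shared promoter peaks. In peaks farther than 1 kb from a TSS it was 0, since most of them held no CG at all.

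T(C/G) runs, T alternating with C or G, are the repeat that the study takes as the SMAR1 binding site. The study also tested that repeat with calorimetry and mobility shift assays. Runs of 12 bp or more were in none of the 10 peaks. The study's own histogram of repeat lengths starts at 6 bp, and at that minimum 10 of the 10 peaks held a run. The share of all peaks at that minimum was not computed. The longest run was 10 bp at *RBM39*, 8 bp at *TMEM209* and *ERCC6L2-AS1*, and 6 bp at *COX11* and *RNF167*, the same in both lines. Of all peaks with a complete sequence, 59.4% in HCT116 p53+/+ and 76.0% in HCT116 p53-/- held a run of 12 bp or more. In the other shared promoter peaks the shares were 14.3% (11.2 to 18.0) and 16.9% (13.4 to 21.1). The p53 consensus was found in none of the 10 peaks with 50 bp added on each side, and in 2.85% and 3.16% of all peaks. No match says only that these letters are not in these windows. The 31 bases at the centre occurred once in the genome for all 10 peaks, and more than once for 49.4% and 53.6% of all peaks.

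The share of peaks with the 10-mer differed between kinds of peak. Apart from the 5 genes, it was present in 81 of 413 shared promoter peaks in HCT116 p53+/+ (19.6%, 16.1 to 23.7) and 85 of 367 in HCT116 p53-/- (23.2%, 19.1 to 27.7). These peaks were used to find the word, so their shares describe it and do not test it. In promoter peaks seen in a single line it was in 0 of 377 for HCT116 p53+/+ (upper limit 1.01%) and 31 of 963 for HCT116 p53-/- (3.22%, 2.28 to 4.53). Away from promoters it was in 4 of 731 shared peaks in HCT116 p53+/+ (0.547%, 0.213 to 1.4) and 5 of 729 in HCT116 p53-/- (0.686%, 0.293 to 1.6), and in 0 of 4158 and 0 of 6122 unshared peaks. With up to 1 mismatch, 47.5% and 57.8% of the other shared promoter peaks held it, against 1.28% of RefSeq promoters. These kinds of peak also differed in length. The median was 155 and 432 bp in the other shared promoter peaks, and 59 and 97 bp in promoter peaks of a single line. Away from promoters it was 75 and 86 bp in shared peaks and 56 and 54 bp in unshared peaks. The part of length in the shares of the 10-mer was not tested.

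Among the 25 shared promoter peaks of the highest score, 9 held the exact word in each line (36%, 20.2 to 55.5), and 4 of those 9 belonged to the 5 genes. With up to 1 mismatch it was in 19 of the 25 in HCT116 p53+/+ (76.0%) and 22 of the 25 in HCT116 p53-/- (88.0%). After place 200 the exact word was in 6.88% and 13.4%, and T(C/G) runs of at least 12 bp, which were in 0 of the first 25, were in 22.5% and 33.1%. The peaks also differed in length, with a median of 504 and 627 bp over the first 25 places and of 109 and 228 bp after place 200, and the part of length in these shares was not tested. The word was found in shared promoter peaks of these lists, and only in those without a T(C/G) run of at least 12 bp. Part of the fall in its share may thus be built in, and these shares describe the word and do not test it.

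**Figure D3:**
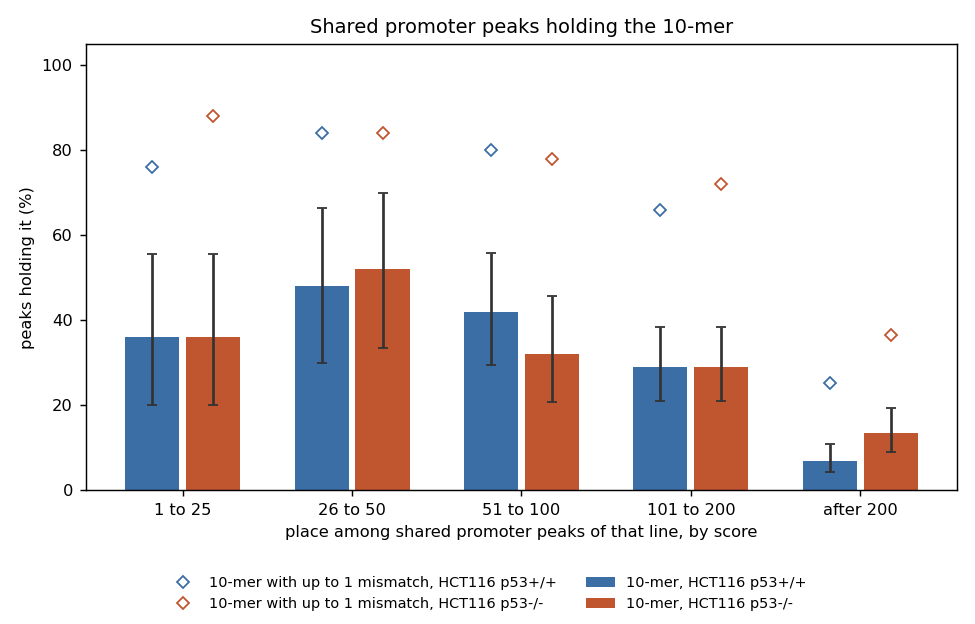
Share of shared promoter peaks that hold the 10-mer exactly (bars, with 95% Wilson intervals) or with up to 1 mismatch (diamonds), by place in the order of scores within each cell line. The bars lie between 29.0% and 52.0% over the first 200 places and at 6.88% and 13.4% after them. The word was found in those of these peaks that hold no long T(C/G) run, so the shares describe it and do not test it.

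At the 5 genes the distance of the word from the peak centre was measured in each line, and a difference between the lines was not tested. In HCT116 p53-/- the 7 copies at the 5 genes lay 4 to 117 bp from the centre of their peak, with a median of 14 bp. In HCT116 p53+/+ they lay 4 to 103 bp away, with a median of 59.0 bp. For the copies in other peaks the medians were 28.0 bp (126 copies) and 24 bp (90 copies). Within 50 bp of the centre lay 4 of the 7 copies in HCT116 p53-/- (57.1%), against 70.6% in other peaks. In HCT116 p53+/+ it was 3 of the 7 (42.9%), against 80.0%. The 7 copies come from 5 peaks, since *RBM39* and *RNF167* hold 2 each, and 2 copies in a peak cannot both lie at its centre. Copies of the same peak are not independent, and whether these shares differ from those of other peaks was not tested. The 2 copies of *RBM39* stood on either side of the centre in both lines, and so did the 2 copies of *RNF167*.

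**Figure D4:**
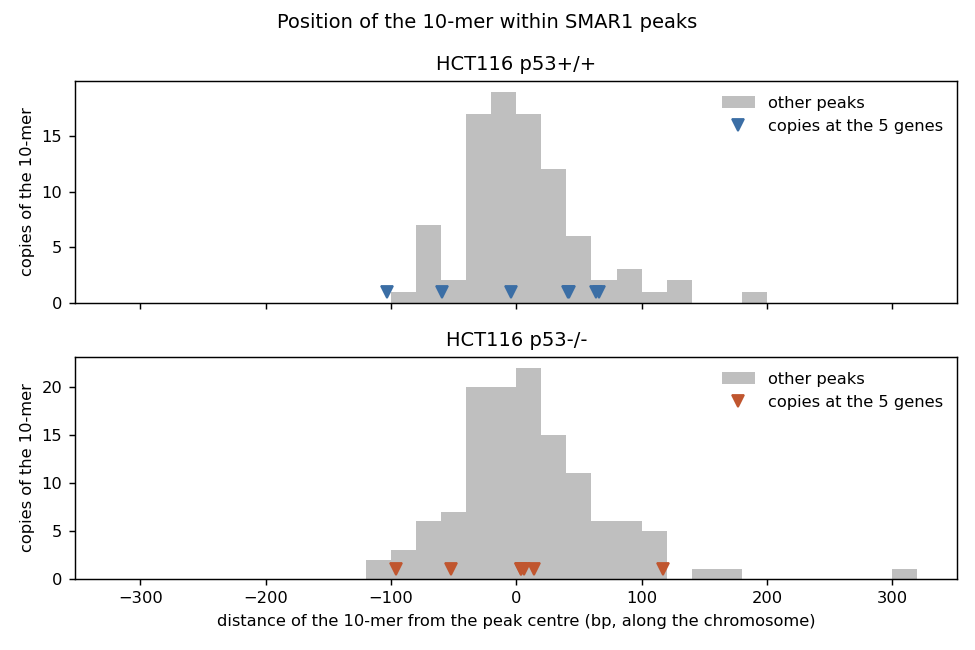
Distance in bp from the peak centre to each copy of the 10-mer, for all other peaks (grey bars, 20 bp wide) and for the 7 copies at the 5 genes (triangles). The copies at the 5 genes lie up to 103 bp from the centre in HCT116 p53+/+ and up to 117 bp in HCT116 p53-/-, within the range of the other peaks.

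The assembled chromosomes of hg19 hold 308 copies of the word, of which the 5 genes account for 7. Of the 162 copies within 1000 bp of an annotated TSS, 93 were inside a HCT116 p53+/+ peak (57.4%, 49.7 to 64.8) and 128 inside a HCT116 p53-/- peak (79.0%, 72.1 to 84.6). All 93 were covered in both lines, as were the 7 at the 5 genes. Of the 146 copies farther from a TSS, 3 (2.05%, 0.701 to 5.87) and 4 (2.74%, 1.07 to 6.83) were covered. No copy was covered in HCT116 p53+/+ alone, and 36 were covered in HCT116 p53-/- alone, the library with more reads. The word was found by its excess in shared promoter peaks of these same lists. Coverage near starts and in both lines is thus partly built in, and these shares describe the word and do not test it.

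**Figure D5:**
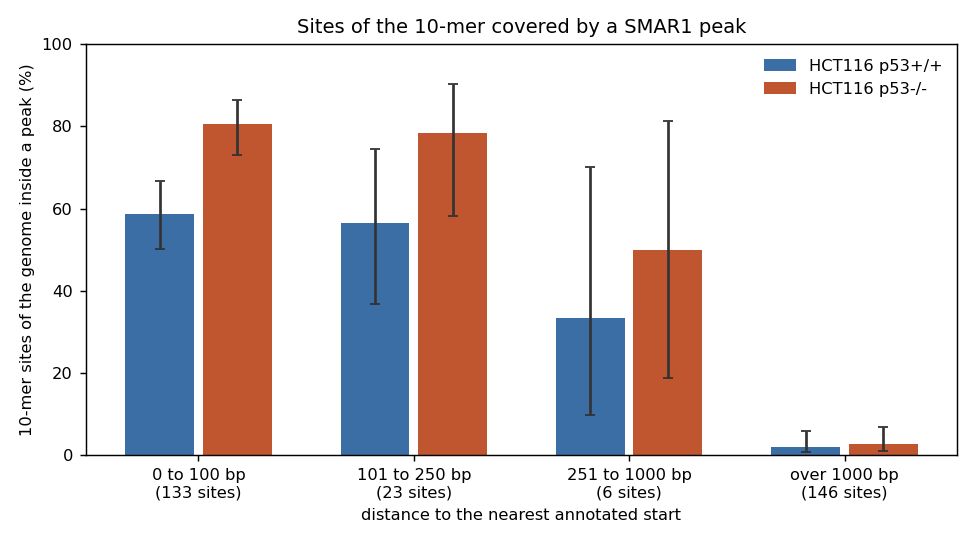
Share of the copies of the 10-mer in hg19 that lie inside a SMAR1 peak (bars, with 95% Wilson intervals), by distance of the copy from the nearest annotated start. Within 100 bp of a start 58.6% and 80.5% of 133 copies were covered, and beyond 1000 bp 2.05% and 2.74% of 146 copies. The word was found in shared promoter peaks of these lists, so the shares describe it and do not test it.

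Each of the 5 genes had a gene starting within 1 kb on the other strand. Of all annotated genes 22.4% had one, and of the 575 genes with a promoter peak in both lines 63.5% did, so the 5 genes are read against the second share. For 4 of the 5 the partner was protein-coding, and for *RBM39* it was a lncRNA gene. Inside *RBM39*, a snoU13 copy on the plus strand (34304393 to 34304492) also started near an internal start, 25943 and 25892 bp from the peak centres.

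No other promoter element searched was at all 5 genes. Each was in at most 48.9% of shared promoter peaks, so this does not set the 5 genes apart. In 300 bases around the HCT116 p53-/- centre, searched on both strands, the ETS element CCGGAAG was at *TMEM209* only and in 18.5% of the 372 shared promoter peaks. The NRF1 half-site GCATGCG was also at *TMEM209* only (5.11%). The CCAAT box was at *RBM39* and *ERCC6L2-AS1* (32.3%), and the GC box GGGCGG was at *ERCC6L2-AS1* only (48.9%). The TATA box TATAAA (5.38%), the YY1 element AAGATGG (7.53%) and the CRE TGACGTCA (2.42%) were at none of the 5. Over RefSeq promoters the shares of these elements ran from 1.85% (CRE) to 45.0% (GC box). A match or its absence is a description of the letters and says nothing of binding.

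No other peak lay in any of the 5 genes in either line, and the share of all genes without a second peak was not computed. The nearest other peak was 31 kb (*ERCC6L2-AS1*, HCT116 p53+/+) to 351 kb (*COX11*, HCT116 p53+/+) away, with scores from 50.08 to 106.71. In all, 2 other peaks lay within 100 kb. Of the 10 nearest peaks 8 held a T(C/G) run of at least 12 bp and 2 were shared between the lines, beside 59.4% and 76.0% of all peaks with such a run and 20.2% and 13.5% shared. Those 2 were the peaks nearest to *RBM39*, at 34577770 to 34577821 and 34577777 to 34577825.

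Of 93 genes that share a role with one of the 5, 5 had a promoter peak in HCT116 p53+/+, 7 in HCT116 p53-/- and 5 in both. Over all protein-coding genes the shares were 3.21%, 5.79% and 2.1%. The counts are small, and whether they differ from these shares was not tested. Each count includes *ERCC6L2*, whose peak is that of *ERCC6L2-AS1* and so was part of the selection. Among 19 factors of 3′ splice site recognition, the group of *RBM39*, 3 had a peak in both lines. *PUF60*, a partner of U2AF, had scores of 122.46 and 601.62 and 2 near matches to the 10-mer. *SF1*, which binds the branch point, had scores of 54.99 and 837.6, and *SUGP1*, a G-patch splicing factor, 164.85 and 791.25, with no near match in either. *PHF5A*, a subunit of SF3b, had a peak in HCT116 p53-/- only (357.49).

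Of 24 genes of cytochrome c oxidase assembly and related mitochondrial factors, the group of *COX11*, only *FASTKD2* had one, with scores of 106.57 and 870.61 and 1 near match. None of the 11 ubiquitin ligases related to *RNF167* had a peak. Of 30 nuclear pore and nuclear membrane genes, the group of *TMEM209*, only *NUP37* did, in HCT116 p53-/- alone (93.19 and 50.8). Of the 9 helicases and partners beside *ERCC6L2-AS1*, *ERCC6L2* did, through the peak described above. Apart from that shared peak, the highest scores at these genes were 164.85 and 870.61. The lowest at the 5 were 329.31 and 1627.29, but the 5 were selected on their scores, so this order says nothing about the listed genes.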

How the data were processed

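The data are ChIP-seq of SMAR1, with 1 library from HCT116 p53+/+ and 1 from HCT116 p53-/- cells. According to the submitters' processing notes and the study's methods, the authors trimmed reads with Cutadapt 1.2.1, aligned them to hg19 with Bowtie2 2.2.1 and called peaks per library with MACS 1.4.2, then filtered them on fold enrichment at a threshold not given in the sources used here. The deposited peak lists hold a position and a score, which is the MACS score and is not scaled for depth. The lists hold no reads, so the depth behind a peak is unknown.

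Positions were converted to 1-based and set against GRCh37 with GENCODE release 44 lifted to that build, an annotation that postdates the study. Peaks without a complete sequence (25 and 31) were left out of sequence counts. A shared peak had at least 1 bp in common with a peak of the other list. The leading 10-mer was the word, counted on both strands, with the largest excess of its share in shared promoter peaks, without the 5 genes and without T(C/G) runs of at least 12 bp, over its share in RefSeq promoters of 300 bases. Of the 5 genes, *RBM39* and *COX11* had no entry among those promoters. The genes, the gene lists and the words were chosen with earlier results of these data known. Named genes were the 5, genes on the other strand within 1 kb, the next 5 loci by the worse rank, and listed genes with promoter peaks in both lists, and *NUP37* and *PHF5A* were named after their values were seen. No test was run. The 5 counting functions were tested on simulated data and recovered 100% of the known answers. Peaks were handled with pandas 2.3.3 and statsmodels 0.14.6 under Python 3.11.15, sequences were read with pysam 0.24.0, and plots were drawn with matplotlib 3.10.9.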

Additional observations from a re-analysis of the deposited data

How the results depend on the processing

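With 1 library per cell line, no replicate could be left out, and no paired analysis was possible because each group holds a single sample and no result comes from a test. The count of 5 genes with a promoter peak in both lines was 5 within 500 or 250 bp, by the nearest edge, with scores of at least 100 and with an overlap of at least 50% of both peaks. It was 4 with the gene start only, where *TMEM209* was lost. All 10 peaks held the 10-mer with 50 bp flanks, with 1 mismatch and as the 8-mer TCGCGAGA. The share of shared promoter peaks holding it (20.6% in HCT116 p53+/+ and 24.2% in HCT116 p53-/-, the 5 genes included) became 48.1% and 58.3% with 1 mismatch. In HCT116 p53+/+ it was 28.3% at or above the median score and 25.2% with the 50% overlap. A T(C/G) run of at least 6 bp was in 10 of the 10 peaks, and one of at least 20 bp in 0. The lowest rank among the 5 genes, 38 and 28 by score, became 3788 and 653 by score per bp. Of 35 alternative values in all, the other 28 stayed within 1.5 times of the count or rank, or inside the 95% interval of the share.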

Other observations

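Of the 18 loci that stood among or before the 5 genes in the order of shared promoter peaks, 5 held the exact 10-mer and 15 held it with up to 1 mismatch. Among the loci with the exact word were *RPS19*, which codes for a protein of the small ribosomal subunit, *MAPK14*, the p38 alpha kinase, *CAND1*, an exchange factor of cullin ubiquitin ligases, and *UBE2D3*, a ubiquitin-conjugating enzyme. *MAPK14* and *UBE2D3* held 2 copies each, as *RBM39* and *RNF167* did. No match with up to 1 mismatch was found at *CDK12*, a kinase of transcription elongation (scores 929.19 and 2607.34), at *NKTR* with *SEC22C* (432.26 and 1994.37) or at *SNHG16* (388.89 and 2185.56). These loci were named after their values were seen. High peaks without the word therefore exist, and none of the 23 loci held a T(C/G) run of at least 12 bp.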
